A study of Mus musculus with 19 samples.

Results

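Complement and coagulation are the 2 large protease cascades whose components the liver secretes into plasma, and their transcripts were measured in the liver of mice with methylmalonic aciduria. The members were 39 genes picked by symbol as liver-made complement, coagulation or anticoagulant genes, 19 of complement and 20 of coagulation. Of these, 36 have a probe set in the annotation used here, out of 19505 genes measured in all, and *C3*, *Cfd* and *Klkb1* were not analysed here. The members were chosen with earlier results of these data known, so their counts beside all genes are descriptions. The mutants (*Mmut*-ko/ki, n = 10) carried a knockout allele and a knock-in allele of *Mmut*, which encodes methylmalonyl-CoA mutase. The controls (*Mmut*-ki/wt, n = 9) carried the same knock-in allele, MMUT-p.Met700Lys, a missense change taken from a patient, together with a wild-type allele. All were male C57BL/6N mice aged 20 weeks by their labels, kept on a high-protein diet and fed *ad libitum* at sampling. Mice without the knock-in allele were not analysed, so both genotypes share it. Each mouse gave 1 Mouse Clariom S array of whole-liver RNA, with 1 log2 signal per gene on each array.

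Complement tags microbes and damaged cells through 3 routes: C1 bound to antibody, mannose-binding lectins bound to sugars, and the self-amplifying alternative pathway. All 3 converge on C3 and then on the terminal components, which assemble into a pore in the target membrane. Coagulation runs through the contact factors and the vitamin K-dependent proteases to thrombin, which turns fibrinogen into fibrin, while anticoagulant proteins and plasmin restrain and dissolve the clot. Hepatocytes are the main source of most of these proteins. Protein amounts and clotting or lytic activity were not measured on the arrays, and a level is compared here only between mice for the same gene, since probe sets of different genes have no common scale.

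The arrays were alike. The median log2 signal of an array ran between 5.19 and 5.25 in mutants and between 5.14 and 5.25 in controls, and 69.8% to 77.1% of probe sets in mutants and 68.0% to 72.7% in controls were detected above background at p under 0.05. *Mmut* itself had log2 signals of 11.18 to 11.90 (median 11.50) in mutants and of 12.80 to 13.53 (median 13.16) in controls, so all 10 mutants lay below every control. All 36 members were detected on all 19 arrays. The highest log2 signal of any probe set was 19.93, and *Fga*, *Fgb*, *Fgg*, *Kng1* and *Serpinc1*, with group means of 17.97 to 19.16, lay closest to it among the members. In whole tissue, fewer cells of a type and less RNA per cell cannot be told apart.

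More members fell than rose in mutant liver, and 5 of the 6 complement genes that fell belong to the terminal step of the cascade. Of the 36 members, 11 fell and 2 rose at an adjusted p under 0.05 (limma, Benjamini-Hochberg over all genes), where 5.33% of all 19505 genes fell and 4.73% rose, 10.1% in either direction. Among the 10849 genes detected on every array, as all members were, 8.83% fell and 7.26% rose. Of the 17 complement genes, 6 fell and *Mbl2* rose, and of the 19 coagulation genes, 5 fell and *Pros1* rose. The median log2 change, mutant minus control, was -0.30 over complement and -0.18 over coagulation, against 0.003 over all genes. Including those that did not pass, 13 of 17 complement and 17 of 19 coagulation changes were below 0 (76.5% and 89.5%), where 49.5% were below 0 over all genes and 53.3% over the genes detected on every array. Under limma with trend and robust settings, 9 complement genes fell and 2 rose, and 9 coagulation genes fell and 1 rose. With a minimum change of 1.2-fold, 4 complement genes fell and 1 rose, and 1 coagulation gene fell and 0 rose.

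**Figure D1:**
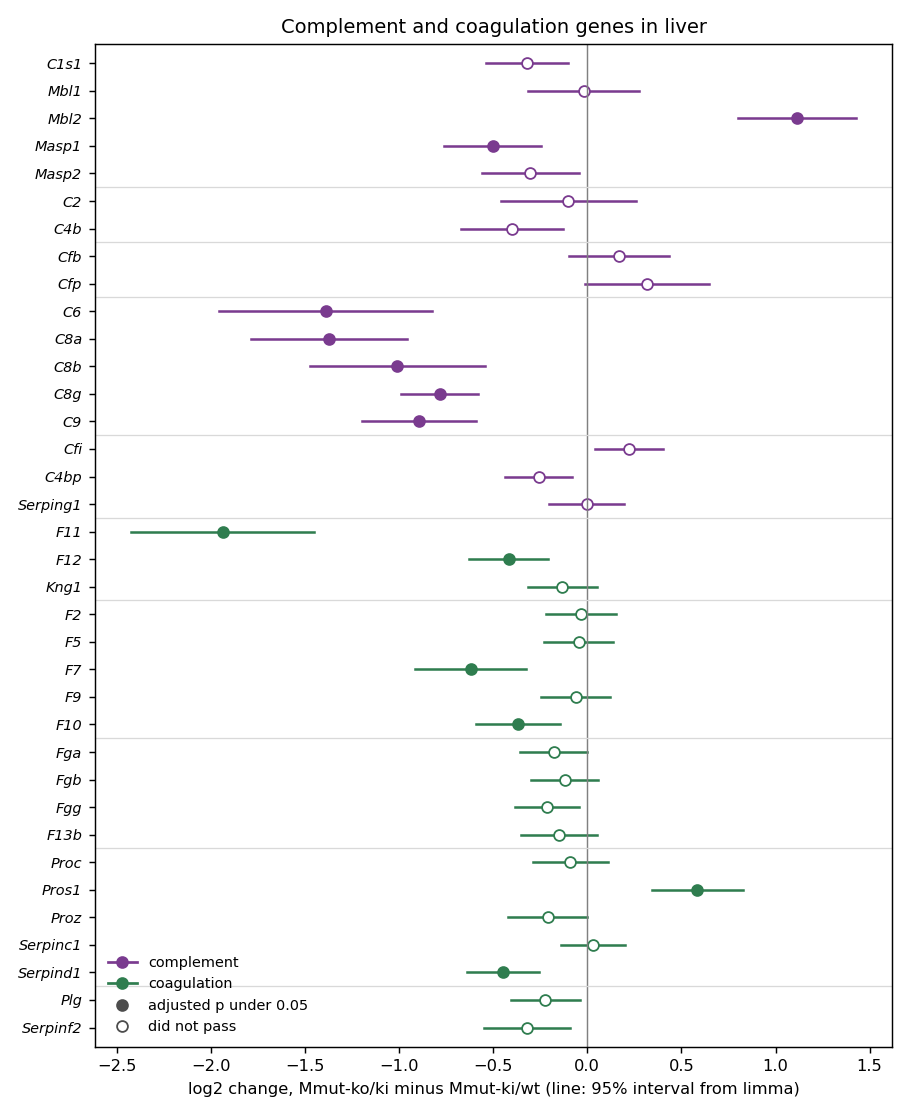
Log2 change of each of the 36 genes (mutant minus control, x axis), grouped by role from complement initiation at the top to fibrinolysis at the bottom, with the 95% interval from limma as a line and filled points for an adjusted p under 0.05. The 5 terminal complement genes and *F11* lie farthest to the left, and *Mbl2* and *Pros1* are the filled points to the right of 0.

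All 5 members of the terminal pathway fell, with log2 changes of -0.78 to -1.39 and a median of -1.01. They encode C6, the 3 chains of C8 and C9, which join the C5b fragment in that order to build the membrane attack complex. The genes of the other 2 components of this complex, which are not members, did not pass. *C7*, whose product joins between C6 and C8, had log2 signals of 6.05 to 6.58 (median 6.22) in mutants and of 5.94 to 6.97 (median 6.15) in controls, a change of -0.01 (95% interval -0.26 to 0.25, adjusted p = 0.986), and *Hc*, which encodes C5, had a change of -0.10 (95% interval -0.33 to 0.13, adjusted p = 0.666). Both intervals leave out the changes of all 5 terminal members. The signal of *C7* was low, though detected on all 19 arrays: array medians were 5.19 to 5.25 in mutants and 5.14 to 5.25 in controls. Whether low signal narrowed its change was not tested, so *C7* cannot be set apart from the 5 members on this ground. *C8a* and *C8b* encode the alpha and beta chains of C8 and are next to each other on chromosome 4. *C8g*, on chromosome 2, encodes the gamma chain, a lipocalin unrelated to the other two. *C6* and *C9* are both on chromosome 15, with 8 protein-coding genes between them.

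*C6* had log2 signals of 14.53 to 16.96 (median 15.67) in mutants and of 16.07 to 17.66 (median 17.03) in controls, a change of -1.39 (standard error 0.27, adjusted p = 0.00115), or 0.382-fold the control level. The groups overlapped: 8 of 10 mutants lay below every control, and mutants 1 and 9, at 16.96 and 16.93, were within the control range. *C8a* had 10.29 to 12.35 (median 11.07) in mutants and 12.09 to 12.84 (median 12.55) in controls, a change of -1.37 (standard error 0.20, adjusted p = 3.63e-05). All mutants except mutant 1 were below every control for *C8a*. *C8b* had 11.89 to 13.62 (median 12.86) in mutants and 12.81 to 14.42 (median 13.71) in controls, a change of -1.01 (standard error 0.23, adjusted p = 0.00377). Only 5 mutants lay below every control here, since control 1, at 12.81, was far under the next control at 13.62.

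*C8g* separated the genotypes completely, at 16.16 to 16.80 (median 16.40) in mutants and 17.00 to 17.40 (median 17.16) in controls. Its change of -0.78 (standard error 0.10, adjusted p = 3.92e-06) was the smallest of the 5, and its spread within each genotype (SD 0.18 in mutants and 0.12 in controls) was the narrowest. Permuting the genotypes over all 92378 splits of the arrays (exact, two-sided) gave p = 2.17e-05 for *C8g*. This p is unadjusted. For any gene whose groups do not overlap it is at or near its smallest by construction, so it adds nothing to the separation. *C9*, whose product polymerizes to line the pore, had 14.54 to 15.57 (median 14.93) in mutants and 15.49 to 16.42 (median 15.95) in controls, a change of -0.89 (standard error 0.15, adjusted p = 1.61e-04). All mutants except mutant 1 were lower than every control.

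**Figure D2:**
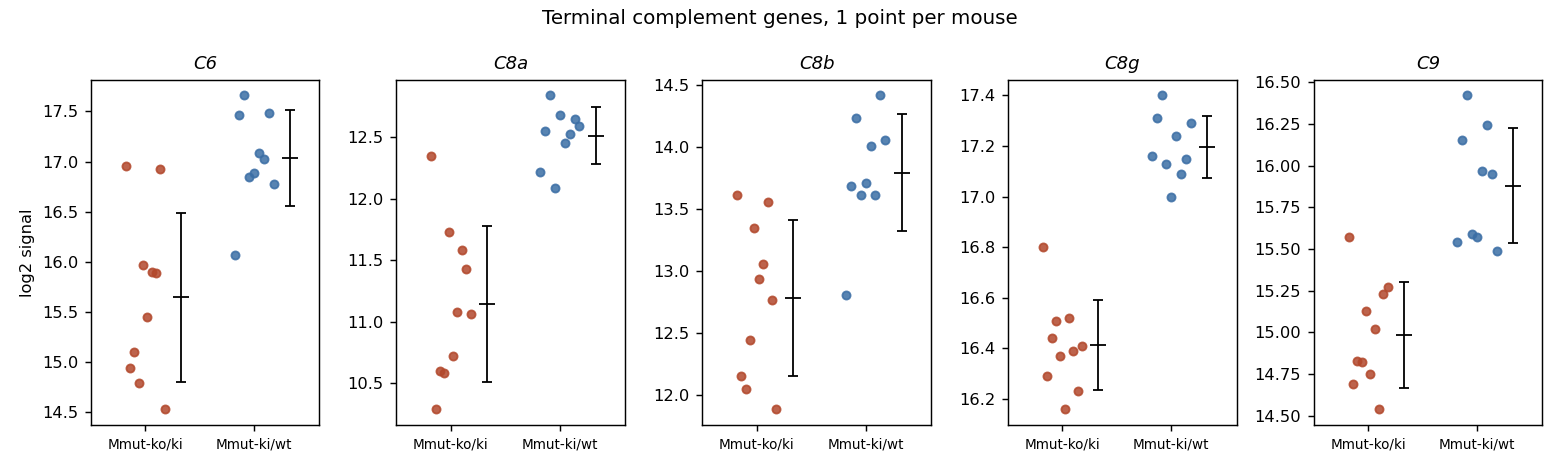
Log2 signal (y axis, a separate scale for each gene) of the 5 terminal complement genes in each mouse, mutants left and controls right, with the mean and SD of each genotype beside the points. Only *C8g* shows no overlap; the highest mutant point is mutant 1 in each of the 5, and the lowest control point of *C6* and *C8b* is control 1.

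Mice of the same genotype also differed among themselves in these genes. *C6* had an SD of 0.84 in mutants and 0.48 in controls, and *C8a* 0.63 in mutants and 0.23 in controls. *C8b* had 0.63 in mutants and 0.47 in controls, and *C9* 0.32 in mutants and 0.34 in controls. Across the 10 mutants, *C6* followed *C8a* with Pearson's r = 0.788 and Spearman's rho = 0.806, *C6* followed *C8b* with r = 0.757 and rho = 0.794, and *C8a* followed *C8b* with r = 0.778 and rho = 0.782. Over the 20 relations computed (10 gene pairs in each genotype) the adjusted permutation p of each of these r was 0.0518, and that of each rho 0.0553, so none passed. With the 2 mutants farthest from the median of the first gene of a pair left out, these r became 0.681, 0.920 and 0.664. Across the 9 controls, *C6* followed *C8b* with r = 0.812 and *C9* with r = 0.767, each with the same adjusted permutation p of 0.0518. With 2 controls left out in the same way, these became 0.383 and 0.695. The median r of the 10 pairs was 0.514 in mutants and 0.495 in controls, and the values of a pair come from the same arrays.

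The stretches around the transcription starts of the 5 terminal genes are shown because these genes fell together, with those of *Mbl2*, the complement gene that rose, and *F11*, the member that fell most. Each runs from 250 bases before to 50 bases after the start in RefSeq (build GRCm38.p6), 5′ to 3′ on the gene's strand. They are chr15:4726960-4727259 (plus strand) for *C6*, chr4:104876349-104876648 (minus) for *C8a*, chr4:104766067-104766366 (plus) for *C8b*, chr2:25501670-25501969 (minus) for *C8g* at the first of its 2 listed starts, chr15:6445096-6445395 (plus) for *C9*, chr19:30232678-30232977 (plus) for *Mbl2* and chr8:45261982-45262281 (minus) for *F11*. Capitals mark matches, on either strand, to 6 motifs of liver transcription factors: GTTAAT (HNF1 half-site), TGTTTAC (FOXA), TTNNGCAA (C/EBP), CAAAGTCCA (HNF4), TTCNNNGAA (STAT) and AGGTCA (nuclear receptor half-site).
C6: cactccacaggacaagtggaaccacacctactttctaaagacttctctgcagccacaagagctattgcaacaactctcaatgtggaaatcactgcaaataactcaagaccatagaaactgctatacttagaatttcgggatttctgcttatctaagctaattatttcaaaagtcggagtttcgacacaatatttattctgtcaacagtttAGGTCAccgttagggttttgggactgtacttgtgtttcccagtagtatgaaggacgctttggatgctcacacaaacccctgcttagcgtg
C8a: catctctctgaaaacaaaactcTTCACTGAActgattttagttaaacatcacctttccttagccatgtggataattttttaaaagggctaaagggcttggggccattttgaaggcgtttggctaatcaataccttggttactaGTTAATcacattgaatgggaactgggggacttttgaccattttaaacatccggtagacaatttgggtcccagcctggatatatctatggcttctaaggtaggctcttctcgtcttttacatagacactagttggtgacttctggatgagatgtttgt
C8b: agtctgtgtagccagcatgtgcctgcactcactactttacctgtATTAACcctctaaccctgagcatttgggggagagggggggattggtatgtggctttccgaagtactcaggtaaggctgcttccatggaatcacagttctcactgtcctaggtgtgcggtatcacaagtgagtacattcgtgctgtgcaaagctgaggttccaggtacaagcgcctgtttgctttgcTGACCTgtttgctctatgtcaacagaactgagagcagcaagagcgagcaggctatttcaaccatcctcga
C8g: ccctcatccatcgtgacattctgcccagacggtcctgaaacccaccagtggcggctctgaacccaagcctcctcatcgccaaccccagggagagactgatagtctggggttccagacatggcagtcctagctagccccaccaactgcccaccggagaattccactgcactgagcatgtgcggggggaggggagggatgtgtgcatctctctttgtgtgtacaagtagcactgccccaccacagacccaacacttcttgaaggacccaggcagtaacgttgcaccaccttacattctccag
C9: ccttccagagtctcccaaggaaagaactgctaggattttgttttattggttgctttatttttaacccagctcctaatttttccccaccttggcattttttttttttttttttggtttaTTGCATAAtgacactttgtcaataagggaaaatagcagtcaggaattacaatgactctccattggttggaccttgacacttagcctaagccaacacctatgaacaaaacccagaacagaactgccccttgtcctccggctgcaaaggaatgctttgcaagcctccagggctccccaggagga
Mbl2: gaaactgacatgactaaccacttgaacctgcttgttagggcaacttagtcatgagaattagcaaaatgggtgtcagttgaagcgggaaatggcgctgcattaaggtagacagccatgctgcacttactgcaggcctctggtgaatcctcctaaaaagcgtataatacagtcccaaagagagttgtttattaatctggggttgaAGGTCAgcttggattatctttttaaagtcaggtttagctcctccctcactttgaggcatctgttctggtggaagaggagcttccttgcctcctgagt
F11: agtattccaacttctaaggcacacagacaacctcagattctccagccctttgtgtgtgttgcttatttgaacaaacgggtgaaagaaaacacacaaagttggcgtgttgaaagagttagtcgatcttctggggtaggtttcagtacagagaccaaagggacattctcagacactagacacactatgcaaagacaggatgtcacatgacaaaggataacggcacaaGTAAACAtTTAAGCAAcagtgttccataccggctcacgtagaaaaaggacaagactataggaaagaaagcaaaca

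No single motif was shared by the 5 terminal windows. The HNF1 half-site stood in those of *C8a* and *C8b*, against 7.20% of 27025 RefSeq promoter windows of this length, and the nuclear receptor half-site in those of *C6* and *C8b*, against 16.0% of windows. The STAT motif was found in that of *C8a* (8.47% of windows) and the C/EBP motif in that of *C9* (10.8%). The window of *C8g* held none of the 6. *Mbl2* had 1 nuclear receptor half-site at position -47 from its start, and *F11* a FOXA match at -25 with a C/EBP match at -17. Over the 27 members with a window, 9 held the HNF1 half-site, 12 the nuclear receptor half-site, 7 the C/EBP, 6 the STAT, 1 the FOXA and 0 the HNF4 letters, of which the last stand in 0.477% and the FOXA letters in 3.55% of all windows. A match is a run of letters, and binding was not measured.

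At the initiation step, the 2 mannose-binding lectins parted. *Mbl2*, which encodes mannose-binding lectin C, had log2 signals of 14.62 to 15.51 (median 15.05) in mutants and of 13.14 to 14.52 (median 13.91) in controls. Every mutant lay above every control. Its rise of 1.12 (standard error 0.15, adjusted p = 1.26e-05) is 2.17-fold the control level and the largest rise of any member, at p = 1.08e-05 in the exact permutation test, the smallest that 92378 splits allow. *Mbl1*, which encodes mannose-binding lectin A, had 11.66 to 13.19 (median 12.32) in mutants and 12.14 to 12.54 (median 12.45) in controls. Its change was -0.02 (95% interval -0.32 to 0.28), and mutants lay on both sides of the control range.

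The proteases that the lectins activate did not follow *Mbl2*. *Masp1*, the protease that activates MASP-2, had 12.73 to 13.71 (median 13.15) in mutants and 13.27 to 13.94 (median 13.66) in controls, a change of -0.50 with adjusted p = 0.00898 and a standard error of 0.12. The groups overlapped, with 7 of 10 mutants below every control. The gene also gives the MASP-3 protease by splicing, and which of its transcripts the probes read is not given in the sources used here. *Masp2*, whose product cleaves C4 and C2, had 16.61 to 17.59 (median 16.99) in mutants and 17.10 to 17.72 (median 17.26) in controls, a change of -0.30 (standard error 0.13, adjusted p = 0.140). *C1s1*, the C1s protease of the antibody-driven route, had 13.88 to 14.71 (median 14.29) in mutants and 14.45 to 14.79 (median 14.66) in controls, a change of -0.32 (standard error 0.11) that missed the threshold at adjusted p = 0.0528 and passed without mutant 1 (0.0403) or mutant 8 (0.0219).

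Neither the central nor the alternative pathway members passed. *C4b*, the source of the C4b opsonin, had 12.82 to 13.71 (median 13.14) in mutants and 13.24 to 14.12 (median 13.53) in controls, a change of -0.40 (standard error 0.13, adjusted p = 0.0533). The groups overlapped, with 8 mutants beneath the control range, and *C4b* passed without mutant 1 or 6 or control 7 or 9 (adjusted p = 0.0219 to 0.0454). *C4a*, its close copy, fell by 0.54 (standard error 0.13, adjusted p = 0.00811), and how far the probes of each copy also bind the other was not tested. *C2*, which supplies the protease of the C3 convertase, had a change of -0.10 (95% interval -0.46 to 0.26), and *Cfb*, its neighbour on chromosome 17 and counterpart in the alternative pathway, one of 0.17 (95% interval -0.10 to 0.43). *Cfp*, the gene of properdin, which stabilizes the alternative pathway's convertase and is made mainly by myeloid cells, had 9.82 to 11.04 (median 10.20) in mutants and 9.23 to 10.38 (median 10.07) in controls, a change of 0.32 (standard error 0.16, adjusted p = 0.248). Beside it, 8 of 8 markers of Kupffer cells and macrophages were higher, with a mean log2 signal of 8.68 to 10.17 in mutants and 8.33 to 9.16 in controls, and their part in it was not tested.

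Of the complement inhibitors, 3 are members, and none of these passed in the main limma fit, but 1 separated the genotypes. *C4bp*, which encodes a chain of the C4b-binding protein, had 15.07 to 15.32 (median 15.26) in mutants and 15.34 to 15.59 (median 15.49) in controls, so that all 10 mutants lay below every control. Its change of -0.26 (standard error 0.09) had an adjusted p of 0.0593 with limma and did not pass. Its unadjusted exact permutation p of 1.08e-05 follows from that separation. *Cfi*, the protease that inactivates C3b and C4b, had 16.83 to 17.08 (median 17.02) in mutants and 16.56 to 16.94 (median 16.77) in controls, a change of 0.22 (standard error 0.09, adjusted p = 0.117). Of the mutants, 7 exceeded the highest control. *C4bp* and *Cfi* passed in the methods' t-test (adjusted p = 0.0013 and 0.00693) and in the Wilcoxon rank sum test (0.00146 and 0.0129). *Serping1*, the C1 inhibitor, which also restrains the contact system, stood at a mean of 16.81 in both genotypes, with SDs of 0.17 in mutants and 0.10 in controls (change -0.00, 95% interval -0.20 to 0.19).

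In the contact system, which starts clotting on charged surfaces, 2 of the 3 measured members fell. *F11*, the gene of factor XI, had 8.54 to 10.52 (median 9.53) in mutants and 10.85 to 12.43 (median 11.37) in controls, with no overlap. Its change of -1.94 (standard error 0.24, adjusted p = 2.50e-06, exact permutation p = 2.17e-05) was the largest of all members and brought it to 0.261-fold the control level. *F12*, the gene of factor XII, which activates factor XI, had 12.40 to 12.97 (median 12.71) in mutants and 12.83 to 13.34 (median 13.08) in controls, and fell by 0.42 (standard error 0.10, adjusted p = 0.00751). The groups met in 1 mutant. *Kng1*, the gene of the cofactor high-molecular-weight kininogen, did not pass at -0.13 (95% interval -0.32 to 0.05), nor did its copy *Kng2* at -0.08 (95% interval -0.29 to 0.14).

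Of the 5 genes for thrombin, its upstream proteases and factor V, 2 fell, and these are neighbours on chromosome 8. *F7*, the protease that tissue factor switches on, had 11.08 to 12.17 (median 11.63) in mutants and 11.86 to 12.72 (median 12.27) in controls, and fell by 0.62 (standard error 0.14, adjusted p = 0.00485). *F10*, the protease that makes thrombin, had 13.05 to 13.47 (median 13.23) in mutants and 13.25 to 13.95 (median 13.70) in controls, and fell by 0.37 (standard error 0.11, adjusted p = 0.0278). Both overlapped, with 8 mutants below every control for *F7* and 6 for *F10*. The *F10* call was lost without mutant 3 (adjusted p = 0.0514), without control 3 (0.0609) and without control 6 (0.0606). *Proz*, the next gene along and the source of the anticoagulant protein Z, had a change of -0.21 (95% interval -0.42 to -0.00, adjusted p = 0.216).

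The other 3 genes of this step did not pass. Prothrombin's *F2* had a change of -0.03 (95% interval -0.22 to 0.15), the cofactor gene *F5* one of -0.05 (95% interval -0.23 to 0.14) and *F9*, the gene of the haemophilia B protease, one of -0.06 (95% interval -0.24 to 0.12).

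The fibrinogen genes, neighbours on chromosome 3, and *F13b*, the carrier subunit of the fibrin-linking factor XIII, did not pass in the main limma fit. *Fga* and *Fgg* passed in the methods' t-test (adjusted p = 0.0105 and 0.00118) and in the Wilcoxon rank sum test (0.0129 and 0.00146). Both also passed in limma with trend and robust settings (0.0418 and 0.00786). The log2 change was -0.18 for *Fga* (adjusted p = 0.219), -0.12 for *Fgb* (adjusted p = 0.451), -0.21 for *Fgg* (adjusted p = 0.113) and -0.15 for *F13b* (adjusted p = 0.390). *Fgg* had 18.86 to 19.03 (median 18.94) in mutants and 19.04 to 19.28 (median 19.12) in controls, so that all mutants lay just below every control. Its signal, like those of *Fga* and *Fgb*, lay near the top of the scale.

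The anticoagulants went different ways. *Pros1*, the gene of protein S, cofactor of activated protein C, had 11.36 to 12.03 (median 11.60) in mutants and 10.64 to 11.35 (median 11.02) in controls. Every mutant lay above every control, and the rise was 0.58 (standard error 0.12, adjusted p = 0.00131), or 1.50-fold. *Serpind1*, the gene of the thrombin inhibitor heparin cofactor II, went the other way, with 16.55 to 16.88 (median 16.66) in mutants and 16.92 to 17.32 (median 17.12) in controls. All mutants were below every control, and it fell by 0.45 (standard error 0.09, adjusted p = 0.00179). Both gave the smallest exact permutation p of 1.08e-05, which follows from this separation and is no further support. *Serpinc1*, the gene of antithrombin, had a change of 0.03 (95% interval -0.14 to 0.20) and *Proc*, the gene of protein C itself, one of -0.09 (95% interval -0.29 to 0.11).

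In fibrinolysis, plasminogen's *Plg* had 17.16 to 17.56 (median 17.31) in mutants and 17.41 to 17.71 (median 17.52) in controls, a change of -0.22 (standard error 0.09, adjusted p = 0.123). *Serpinf2*, the gene of the plasmin inhibitor alpha-2-antiplasmin, had 14.99 to 15.76 (median 15.52) in mutants and 15.53 to 16.05 (median 15.79) in controls, a change of -0.32 (standard error 0.11, adjusted p = 0.0705). Neither passed in the main limma fit, the groups overlapped in both, and *Serpinf2* passed without mutant 8 (adjusted p = 0.0496). *Plg* and *Serpinf2* passed in the methods' t-test (adjusted p = 0.00889 and 0.0426) and in the Wilcoxon rank sum test (0.0129 and 0.0226).

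**Figure D3:**
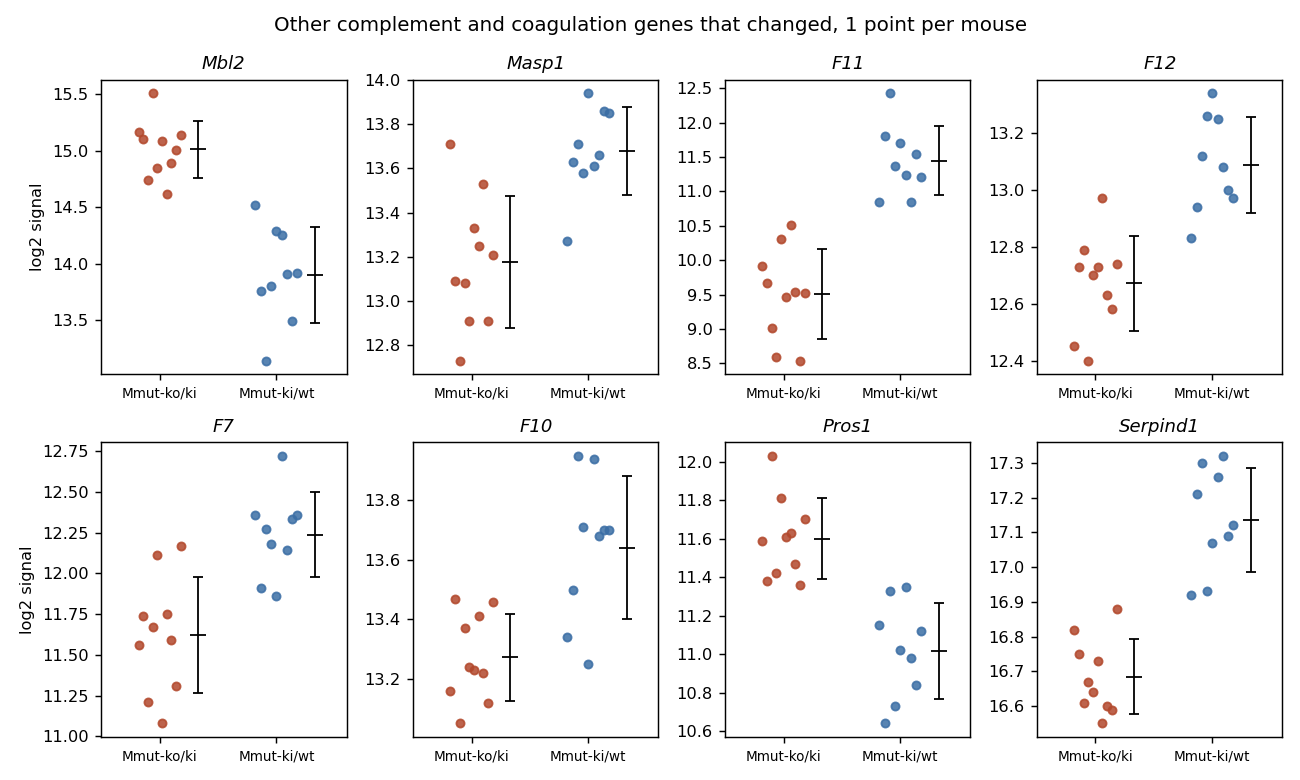
Log2 signal (y axis, a separate scale for each gene) in each mouse of the 8 other genes that changed, mutants left and controls right, with the mean and SD of each genotype. *Mbl2* and *Pros1* are higher and *F11* and *Serpind1* lower in every mutant than in every control, and the 2 groups of points overlap for *Masp1*, *F12*, *F7* and *F10*.

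Set side by side, complement had the lower median change and coagulation the narrower spread between mutants, as values with no test of the difference. The members closest to the top of the scale (*Fga*, *Fgb*, *Fgg*, *Kng1* and *Serpinc1*) are all coagulation genes. Whether this narrowed the change or the spread of coagulation was not tested. The median change of complement was 0.12 lower than that of coagulation on the log2 scale (difference -0.12), and with single mice left out this difference ran from -0.19 to -0.07. Outside the terminal pathway, the 12 other complement genes had a median change of -0.06, with 1 that fell and 1 that rose. Groups that do not overlap were found for 3 complement genes (*Mbl2*, *C8g* and *C4bp*) and 4 coagulation genes (*F11*, *Fgg*, *Serpind1* and *Pros1*). Over all 19505 genes 289 show this (1.48%), and 270 of the 10849 genes detected on every array, as all members were.

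Averaged within each mouse as the difference from the control mean, the 19 coagulation genes stood at -0.42 to -0.18 in mutants and at -0.07 to 0.13 in controls, without overlap, and their SD over the mutants was 0.0789. The 17 complement genes stood at -0.57 to 0.16 in mutants and -0.17 to 0.11 in controls, and the 5 terminal genes at -1.61 to -0.22 in mutants and -0.52 to 0.43 in controls, both with overlap. The SD of the complement mean over the mutants was 0.212, and 0.134 without mutant 1, where that of the coagulation mean was 0.0814. In the terminal genes mutant 1, at -0.22, was the only mutant above the lowest control, which was control 1 at -0.52. It was also the only mutant whose complement mean was above 0, at 0.16. Its coagulation mean of -0.21 lay among those of the other mutants.

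**Figure D4:**
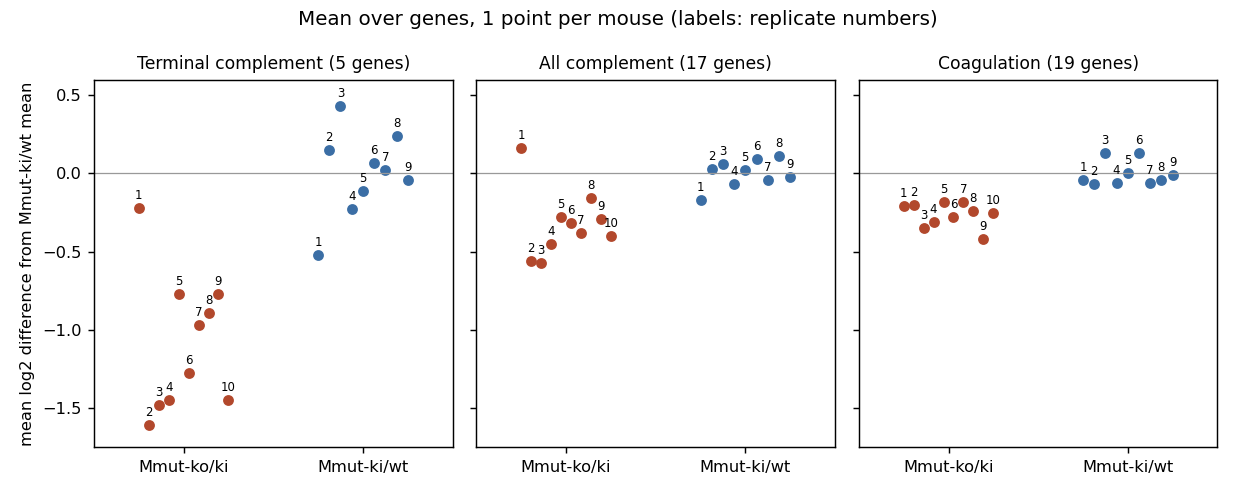
Mean log2 difference from the control mean (y axis) over the 5 terminal complement genes, all 17 complement genes and the 19 coagulation genes in each mouse, mutants left and controls right, with replicate numbers above the points. Mutant 1 lies apart from the other mutants in both complement panels and among them in the coagulation panel.

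Mutant 1 also had the highest share of detected probe sets, 77.1%, and the part of this in its complement values was not tested. Its *Mmut* signal of 11.23 lay among those of the other mutants, and its *C8g* signal of 16.80 was still below every control. Without it, 8 complement genes fell instead of 6 (*C1s1* and *C4b* besides), *C6* changed by -1.54 and *C8a* by -1.51, and the coagulation counts stayed at 5 that fell and 1 that rose. Without mutant 1 and control 1 together, a choice made after seeing the data, the same counts were found, and the median change was -0.35 over complement and -0.17 over coagulation.

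**Figure D5:**
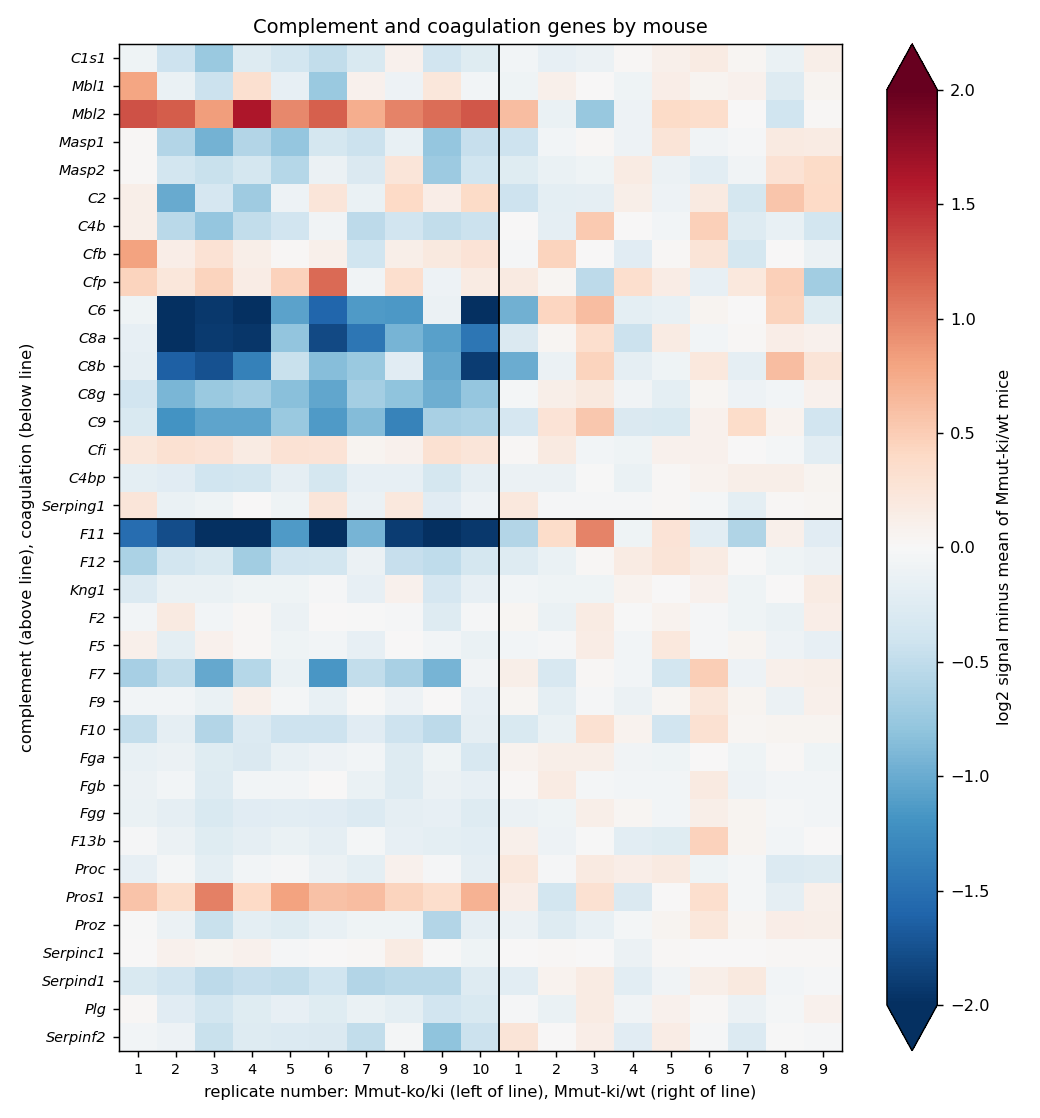
Difference of each mouse's log2 signal from the control mean (colour, blue lower and red higher, cut at -2 and 2) for the 36 genes in rows, complement above the line and coagulation below it, with mutants left and controls right. The rows of *C6*, *C8a*, *C8b* and *F11* are the darkest blue in mutants, and column 1 of the mutants is pale in the first 3 of these and blue in *F11*.

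Complement genes outside the members were described from a list of 27, of which 26 were measured, 4 fell and 3 rose. The changed genes are 26.9% of those measured, where 10.1% of all genes and 16.1% of genes detected on every array changed. *Susd4*, whose product inhibits complement activation, had 6.53 to 10.46 (median 8.10) in mutants and 10.64 to 12.20 (median 11.55) in controls, without overlap, and fell by 3.24 (standard error 0.33, adjusted p = 1.68e-07). *Cpn2*, the carrier subunit of the carboxypeptidase that trims anaphylatoxins, fell by 0.61 (adjusted p = 4.35e-04) and *C1rl*, a protease related to C1r, by 0.55 (adjusted p = 0.00433). *Vsig4*, the C3b receptor of Kupffer cells, rose by 0.87 (adjusted p = 0.00435). *Cd59a*, the gene of an inhibitor of the membrane attack complex, had 14.15 to 14.70 (median 14.43) in mutants and 13.82 to 14.22 (median 13.96) in controls, and rose by 0.36 (standard error 0.10, adjusted p = 0.0207). The groups overlapped, with 8 mutants above every control, and the call was lost with a minimum change of 1.2-fold. Apart from single left-out mice, *Cd59a* kept its call in 10 of 12 alternatives, *Cpn2*, *C1rl* and *Vsig4* in 11 and *Susd4* in 12. *C1s2*, the copy of *C1s1*, had a change of -0.00 (95% interval -0.24 to 0.24).

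Of 29 further coagulation genes, 25 were measured, 5 fell and 2 rose. The changed genes are 28% of those measured, where 10.1% of all genes and 16.1% of genes detected on every array changed. *F2r*, the thrombin receptor PAR1, had 7.58 to 9.05 (median 8.42) in mutants and 9.32 to 10.68 (median 9.87) in controls, without overlap, and fell by 1.55 (standard error 0.19, adjusted p = 2.05e-06). *S100a10*, part of a plasminogen receptor, fell by 0.91 (adjusted p = 0.00275) and *Hrg*, the gene of histidine-rich glycoprotein, by 0.46 (adjusted p = 0.00602). *F8*, the gene of factor VIII, which the liver's endothelium makes, rose by 0.52 (adjusted p = 0.00427). Of 7 measured genes of gamma-carboxylation and vitamin K handling, *Cyp4f14* fell by 0.69 (adjusted p = 0.00226), or 14.3% of the list. The other 6 did not pass. Among these, the carboxylase gene *Ggcx*, whose enzyme completes the vitamin K-dependent factors, had a change of -0.36 (adjusted p = 0.0526). Apart from single left-out mice, *S100a10*, *Hrg*, *F8* and *Cyp4f14* each kept their call in 11 of 12 alternatives and *F2r* in 12.

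Acute phase proteins and their relatives, many of which the liver makes under inflammatory cytokines, moved both ways: of 22 measured, 4 rose and 4 fell. The changed genes are 36.4% of those measured, where 10.1% of all genes and 16.1% of genes detected on every array changed. *Orm2* fell by 1.74 (adjusted p = 4.78e-04), *Orm1* by 1.21 (adjusted p = 6.75e-05) and *Saa4* by 1.03 (adjusted p = 7.62e-06), while *Lbp*, the lipopolysaccharide-binding protein, rose by 0.55 (adjusted p = 0.00158). *Hp* rose by 0.41 (adjusted p = 0.0214), *Hpx* by 0.33 (0.0476) and *Il1rn* by 0.82 (0.0252), while *Orm3* fell by 0.82 (0.0292). These were not followed over the alternatives. The inducible *Saa1* had a change of -0.02 (95% interval -0.71 to 0.67) and *Saa2* one of 0.12 (95% interval -0.82 to 1.06), and neither passed. *Saa3* did not pass either, at 0.58 (95% interval 0.19 to 0.98, adjusted p = 0.0552). Of 11 genes of cytokine signaling to hepatocytes, *Cebpb* rose by 0.44 (adjusted p = 0.0389) and *Il1r1* fell by 0.62 (adjusted p = 0.0171). These are 18.2% of the list, near the 16.1% of genes detected on every array that changed. The *Cebpb* call was lost without mutant 1, 4, 5, 6 or 9 or control 1, 2, 4, 6 or 9 (adjusted p up to 0.0855). Of 10 measured transcription factors of these genes, *Nr1i2* rose by 0.55 (adjusted p = 0.0211) and the other 9 did not pass. That is 10% of the list, near the 10.1% of all genes that changed. Among these 9, *Hnf4a* stood at 0.13 (95% interval -0.17 to 0.42) and *Cebpa* at -0.30 (95% interval -0.63 to 0.02). The largest change of the 10 was that of *Onecut1*, at -1.15 (95% interval -2.31 to 0.01, adjusted p = 0.231). Apart from single left-out mice, *Lbp* and *Il1r1* kept their call in 11 of 12 alternatives, *Nr1i2* in 10 and *Cebpb* in 7.

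Of 21 other measured genes for secreted or hepatocyte-made proteins, 4 rose and 1 fell, with a median change of 0.002. The changed genes are 23.8% of those measured, where 10.1% of all genes and 16.1% of genes detected on every array changed. *Serpina7*, the gene of thyroxine-binding globulin, rose by 2.69 (adjusted p = 5.11e-08), *Serpina6*, the gene of corticosteroid-binding globulin, by 1.06 (adjusted p = 3.13e-04) and *Ttpa*, the alpha-tocopherol transfer protein, which stays in the cell, by 0.70 (adjusted p = 8.79e-05), while the chemotactic factor *Lect2* fell by 0.76 (adjusted p = 7.67e-04).

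Markers of the liver's cell types were read for the same arrays, beside 4.73% of all genes that rose and 5.33% that fell. None of 7 hepatocyte markers passed, and their mean log2 signal was 19.42 to 19.54 in mutants and 19.47 to 19.54 in controls, near the top of the scale. All 8 markers of Kupffer cells and macrophages were higher in mutants, 4 of them past the threshold (*Vsig4*, *Clec4f*, *Cd5l* and *Adgre1*). The *Cd5l* call was lost without mutant 1, 3 or 6 or control 2, 3, 5, 7, 8 or 9, and that of *Adgre1* without mutant 3 or control 2, 3 or 5 (adjusted p up to 0.0734 and 0.0574). One of 6 sinusoidal endothelial markers rose (*Clec4g*, adjusted p = 8.71e-05), with a mean over the list of 10.30 to 10.87 in mutants and 10.27 to 10.53 in controls. One marker fell in each of the lists for stellate cells (*Reln*), cholangiocytes (*Sox9*), platelets (*Ppbp*, detected in 0 mutants and 3 controls) and red cells (*Alas2*, log2 change -1.89, adjusted p = 1.18e-07, the 1 measured of 4). No marker of adipocytes, neutrophils, B cells or T and NK cells passed. Apart from single left-out mice, *Clec4f*, *Cd5l* and *Adgre1* each kept their call in 9 of 12 alternatives and *Reln* in 10 of 12. *Vsig4* and *Sox9* kept theirs in 11 of 12, *Ppbp* in 10 of 11, and *Clec4g* and *Alas2* in 12 of 12. The part of these cells in the member changes was not tested.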

How the data were processed

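Liver RNA of 10 mutant and 9 control mice was read on Mouse Clariom S arrays, each mouse on its own array. The authors processed the scans at gene level with SST-RMA, a robust multiarray average, in the Transcriptome Analysis Console, and deposited normalized log2 signals; the processing notes in the labels name RMA. A detection p-value (signal above background) was deposited beside each signal. The log2 values of the other deposited table deviate from these by at most 5e-04. The genome build of the probe sets is not given in the sources used here.

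These values entered the fit unchanged and unfiltered. A probe set was used only where the annotation names 1 gene for it and no other. This held for 19572 of 22206 probe sets, and the other 2634 were left out. The brightest probe set was kept where a gene had more than 1 (55 genes), giving 19505 genes. Genotypes were compared with limma's linear model and empirical Bayes step (limma 3.58.1, R 4.3.3, all 19 arrays, two-sided, no covariate), with p-values adjusted after Benjamini and Hochberg over all genes and a threshold of 0.05. For single genes, the genotypes were also permuted over the arrays (exact, two-sided, on the mean difference). The procedure was tested on simulated data. Figures were drawn with matplotlib 3.10.9, and tables made with pandas 2.3.3, scipy 1.17.1 and numpy 2.4.6 in Python 3.11.15. The number of mice sets the precision.

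The members, the other gene lists and the markers were chosen with earlier results of these data known. Full values are given for members past the threshold and the 8 others with the largest change. Values are given for up to 4 changed genes of each other list by adjusted p, close copies of members and *Mmut*. *Saa1*, *Saa2*, *Saa3*, *Hp*, *Hpx*, *Il1rn*, *Orm3*, *Hnf4a*, *Cebpa*, *Onecut1*, *Ggcx*, *C7* and *Cd59a* were named after their values were seen. Promoter windows, gene order and chromosomes came from RefSeq tables, with 27 of 36 members matched to a window. Replicate numbers did not pair the arrays: over 9 pairs of the same number, deviations from the genotype means correlated at -0.093 to 0.058. Alternatives were limma with trend and robust settings, the methods' t-test, the Wilcoxon rank sum test, the second table, median centring, quantile normalization, a detection filter, array weights, a replicate block, a 1.2-fold minimum, averaged probe sets, other list borders and leaving out each array; leaving out mutant 1 and control 1 together was added after seeing the data.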

Additional observations from a re-analysis of the deposited data

Results flagged for a closer look

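Of 72 sets of values tested (36 genes in each genotype), 4 held a mouse far from the others of its genotype by Dixon's test at the 95% level, where chance flags about 1 in 20. *Cfp*, properdin, was highest in mutant 6 at a log2 signal of 11.04, with the next mutant at 10.37. *C8b* was lowest in control 1 at 12.81, with the next control at 13.62, and without this mouse the change of *C8b* was -1.13 (adjusted p = 7.61e-04 with limma). *F13b* was highest in control 6 at 12.44, with the next control at 12.07. *Serpinc1* was lowest in control 4 at 17.85, with the next control at 17.97. The causes were not tested.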

How the results depend on the processing

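Over the alternatives, the 13 genes that changed kept their direction in all 403 comparisons and their side of the threshold in 391. The 12 exceptions were *F10* (quantile normalization, adjusted p = 0.0504; the replicate block, 0.0700; the 3 left-out mice given above; and a minimum change of 1.2-fold) and, under that minimum alone, *Masp1*, *C8b* (0.0516), *F12*, *F7*, *Pros1* and *Serpind1*. Requiring 1.2-fold is by construction stricter and left 4 complement genes that fell and 1 that rose, 1 coagulation gene that fell and 0 that rose, and over all genes 305 that rose and 229 that fell. Under the trend and robust settings of limma, the methods' t-test and the Wilcoxon rank sum test, 2 complement genes rose (*Cfi* besides *Mbl2*) and 9 coagulation genes fell (*Fga*, *Fgg*, *Plg* and *Serpinf2* besides the 5), while 9, 8 and 9 complement genes fell (*C1s1* and *C4bp* besides the 6, and *C4b* except in the t-test). Under median centring 9 complement and 6 coagulation genes fell, and under quantile normalization 2 complement genes rose, again with *Cfi*. The cause was not tested. Over the 12 alternatives other than single left-out mice, *C1s1* passed in 7 and *C4b*, *C4bp* and *Serpinf2* in 5 each, with a lowest adjusted p of 0.00130 for *C4bp*. Among the 23 genes that did not pass, the sign turned in 16 of 713 comparisons, each with a change near 0: *Serpinc1* -0.005754 (median centring), *Serping1* 0.05638, *F2* 0.05628 and *F9* 0.01229 (quantile normalization), and, with single mice left out, *C2* -0.1569 to 0.00039, *Mbl1* -0.1098 to 0.06057 and *Serping1* -0.03132 to 0.02193. Median centring moved the median of all genes by -0.03 and quantile normalization by -0.008. With the replicate number as a block, 6 complement genes fell and 1 rose, 4 coagulation genes fell and 1 rose, *Cd59a* did not pass, and *Serping1* stood at 0.007254; the numbers do not pair the arrays, no pair's correlation was above 0.1, and 0 mutants correlated best with the control of their own number. Apart from single left-out mice, the median change ran from -0.35 to -0.24 over complement, from -0.21 to -0.15 over coagulation and from -0.18 to -0.09 for their difference. Whether signal near the top of the scale compressed the changes of *Fga*, *Fgb*, *Fgg*, *Kng1* and *Serpinc1* was not tested.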
